A study of Homo sapiens with 6 samples.

Results

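Axon guidance ligands and receptors are the cue molecules and cell-surface receptors that steer growing nerve fibres, and the same families act in epithelia, blood vessels and tumours. They were followed here in A549, a long-established line from a human lung adenocarcinoma, with and without knockdown of METTL3. The members were taken by symbol from the table of read counts: the Eph receptors, the ephrins, the semaphorins of classes 3 to 7, the plexins, NRP1 and NRP2, the slits, the robos, the netrins, the UNC5 receptors, DCC and NEO1. They made up 70 of the 57781 rows, with 35 rows in ligand families and 35 in receptor families.

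Each family pairs a ligand with a receptor. Ephrins stay on the membrane of 1 cell, ephrin-A through a lipid anchor and ephrin-B through a transmembrane segment, and bind Eph receptor tyrosine kinases on a neighbour. Semaphorins bind plexins, which act on small GTPases, and most secreted class 3 semaphorins do so through a neuropilin as co-receptor. Slits bind robo receptors, and netrins bind DCC, its relative NEO1 and the UNC5 receptors. Much of this signalling ends on the actin skeleton, where it draws a cell edge in or pushes it out.

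A549 cells with only the vector (genotype label WT) gave 3 libraries, and A549 cells with short hairpin RNA against METTL3 (shMETTL3, genotype label METTL3 knockdown) gave another 3. METTL3 is the catalytic subunit of the enzyme that writes m6A, a methyl mark on adenosines of mRNA. Cells of both groups were the same labelled line, non-small cell lung cancer, kept in DMEM with serum, and no treatment or time point is given. The count columns call the knockdown libraries sh1 to sh3, and whether these are repeats of 1 hairpin or different hairpins was not given in the sources used here. The study's methods say only in general terms that experiments were repeated independently, and do not say so of these libraries. The p-values measure the spread between these libraries, which may be technical.

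METTL3 itself, the targeted gene, was at 49.3, 50.6 and 49.5 CPM in vector replicates 1, 2 and 3 and at 18.8, 19.9 and 19.3 CPM in shMETTL3 replicates 1, 2 and 3. CPM are counts per 1000000 counts, scaled by the TMM method of edgeR. The knockdown libraries kept 38.8% of the vector mean (log2 fold change -1.36, standard error 0.067, adjusted p = 4.57e-16), and the exact two-sided permutation p was 0.1, the minimum possible with 3 libraries against 3. METTL3 lies on chromosome 14 of GRCh37 from 21966277 to 21979484, and 388 bases of its exons overlap those of TOX4 on the other strand.

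The library totals ran from 14931426 to 19108928 counts, so that 3 counts, taken as the floor, correspond to 0.149 to 0.189 CPM. Libraries of a group differed by more than sampling noise (chi-square per degree of freedom 2.79 to 7.50 within a group and 79.8 to 98.8 across groups). The summed CPM of 9 markers of A549 and lung epithelium lay at 9957 to 10620 in the vector and at 5147 to 5596 in the shMETTL3 libraries. Of the 7 of these tested, EPCAM, KRT19, KRT18, KRT8 and CDH1 fell and KRT7 and SFTPB rose, while the defining lung markers NKX2-1 and SFTPC did not pass the filter on low counts. Neuronal markers summed to 54.7 to 59.5 CPM in vector and 90.0 to 92.3 CPM in shMETTL3 libraries: SYT1, SNAP25 and RBFOX3 rose, MAP2 fell, TUBB3 was not called, and STMN2 and ELAVL4 had 0 counts throughout. Markers of fibroblasts summed to 6.62 to 9.49 and 13.6 to 14.3 CPM, of leukocytes to 0.445 to 1.84 and 6.38 to 7.74 CPM, and of endothelium, over 4 of 5 markers without PECAM1, to at most 0.184 and at most 2.01 CPM. Their risers were COL1A1, CD14 and CDH5 in turn, with CD3E and VWF at 0 in every library. SFTPB, CD14 and CDH5 passed the filter only through the shMETTL3 libraries, so their calls are a description. The part of the marker shifts in the results below was not tested. In bulk RNA, fewer cells of a type and less RNA per cell cannot be told apart.

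A gene was tested where edgeR's filter on low counts kept it, and called at a Benjamini-Hochberg adjusted p under 0.05 over all 15125 genes tested by edgeR's quasi-likelihood test. Of the 70 members, 57 were tested and 48 were called, 22 higher and 26 lower in the shMETTL3 libraries. Most genes of the table were called in this contrast: 66.6% of all tested genes changed, 33.7% higher and 32.9% lower. The called members are a larger share than that, but a gene that the filter keeps only through its higher group had to differ, so the counts are a description. Of the tested members, 7 had under 10 counts in each library of 1 group and passed through the other: EPHA3, EPHA7, PLXNC1, UNC5C, EFNB2, SEMA4A and SEMA3G, all called but SEMA3G. SLIT1, SEMA7A, ROBO3 and NTN1 also needed their higher group to pass, though at least 1 library of the lower group had 10 counts or more. Of these, SLIT1 and ROBO3 were called. A change of at least 2-fold was called for 25 members, 12 higher and 13 lower, against 17.6% of all tested genes. The 3 vector and 3 shMETTL3 values did not overlap for 48 of the 57 members, against 69.4% of all tested genes. The median log2 fold change of the tested members was 0.11 and that of all tested genes 0.0022, and the median absolute log2 fold change was 0.88 for members and 0.41 for all tested genes. With library size alone as the scaling, the median of all tested genes moved to 0.18, and 26 members were called higher and 21 lower.

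Of the receptor families, 26 members were tested and called, 10 higher and 16 lower, beside 66.6% of all tested genes. Of the 31 ligand-family members tested, 12 rose and 10 fell, and the 9 members tested and not called were all ligands. Of the receptors, 4 passed the filter with under 10 counts in each library of the lower group (EPHA3, EPHA7, PLXNC1 and UNC5C). ROBO3 also needed its higher group to pass, so nothing is read from this split. It also depends on the settings: DESeq2 did not call the receptors PLXNC1 and ROBO3. With library size alone, the receptors EPHB4, EPHB6, PLXNB2 and ROBO3 were not called, and the ligands SEMA4B, SEMA4D, SEMA4F and SEMA7A were. In a plot of the log2 fold changes, the Eph receptors spanned the widest range of the families, from -7.67 for EPHA3 to 3.26 for EPHB2.

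**Figure D1:**
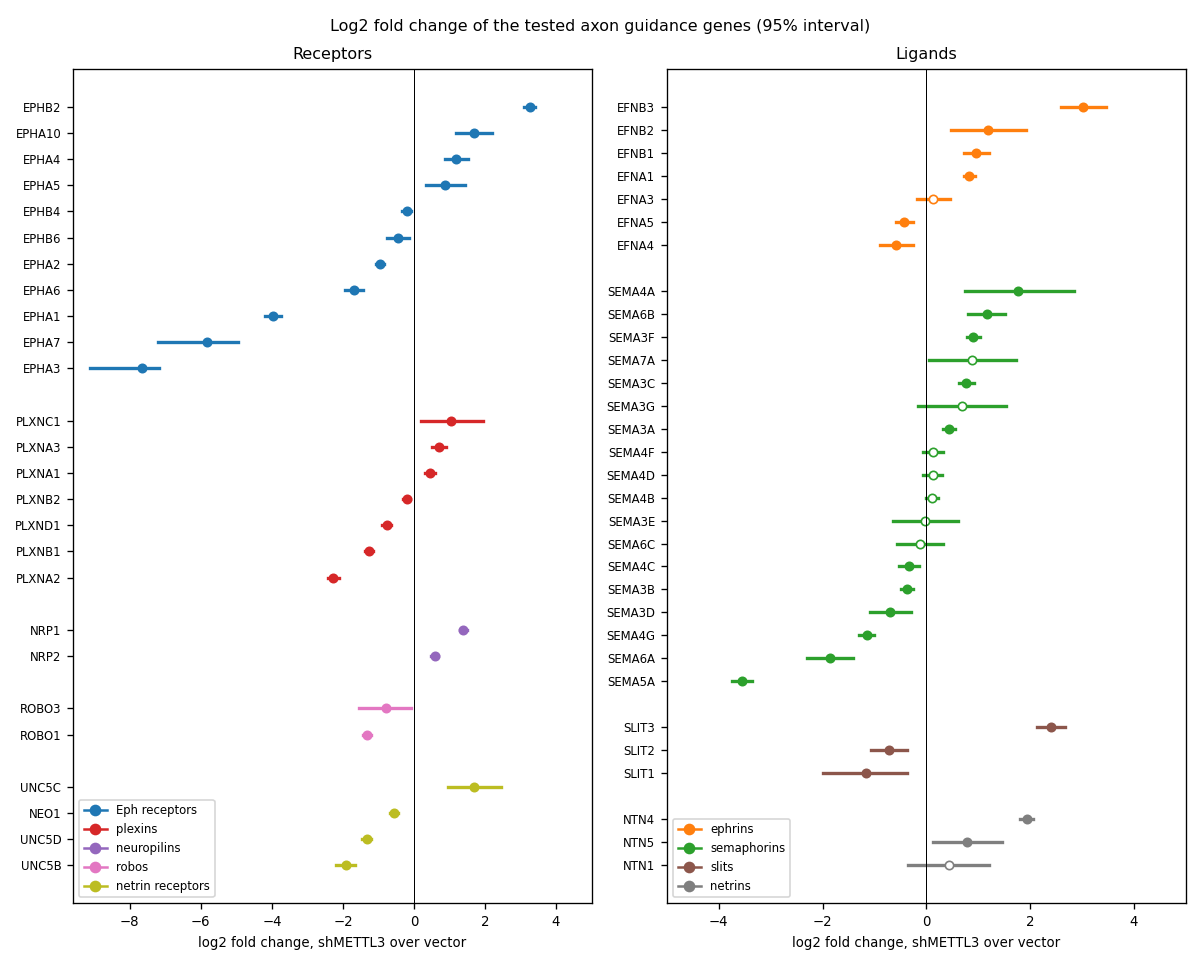
Log2 fold change of shMETTL3 over vector libraries (n = 3 each) for the 57 tested members, by family, with bars for 95% intervals from edgeR's fit. Filled points passed an adjusted p under 0.05 and open points did not: the 9 open points all belong to ephrins, semaphorins or netrins, and SEMA7A is open because its p did not pass after adjustment.

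The 3 largest falls and the largest rise among the tested members were all in Eph receptors: EPHA3, EPHA7, EPHA1 and EPHB2. Their promoters are shown as sequence, because these 4 genes lost or gained most of their reads. The sequences are the 250 bases before the annotated start in RefSeq's GRCh38.p14, written 5′ to 3′ along the gene, with every CpG dinucleotide in capitals. The windows are chr3:89107371-89107620 on the plus strand for EPHA3, chr6:93419560-93419809 on the minus strand for EPHA7, chr7:143408857-143409106 on the minus strand for EPHA1, and chr1:22710588-22710837 on the plus strand for EPHB2.
EPHA3: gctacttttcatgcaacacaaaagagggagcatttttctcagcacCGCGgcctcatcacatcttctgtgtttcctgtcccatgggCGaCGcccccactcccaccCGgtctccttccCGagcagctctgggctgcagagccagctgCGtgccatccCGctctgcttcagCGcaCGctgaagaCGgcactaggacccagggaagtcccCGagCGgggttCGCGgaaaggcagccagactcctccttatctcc
EPHA7: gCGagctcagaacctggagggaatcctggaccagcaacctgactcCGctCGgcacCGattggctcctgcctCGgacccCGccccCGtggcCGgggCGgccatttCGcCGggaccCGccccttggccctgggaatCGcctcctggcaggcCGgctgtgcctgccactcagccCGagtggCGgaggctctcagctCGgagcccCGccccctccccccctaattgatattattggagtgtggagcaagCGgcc
EPHA1: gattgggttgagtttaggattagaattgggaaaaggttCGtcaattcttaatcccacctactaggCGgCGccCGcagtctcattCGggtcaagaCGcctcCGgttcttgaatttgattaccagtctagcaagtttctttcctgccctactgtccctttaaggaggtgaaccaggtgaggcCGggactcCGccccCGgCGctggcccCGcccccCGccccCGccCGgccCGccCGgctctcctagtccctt
EPHB2: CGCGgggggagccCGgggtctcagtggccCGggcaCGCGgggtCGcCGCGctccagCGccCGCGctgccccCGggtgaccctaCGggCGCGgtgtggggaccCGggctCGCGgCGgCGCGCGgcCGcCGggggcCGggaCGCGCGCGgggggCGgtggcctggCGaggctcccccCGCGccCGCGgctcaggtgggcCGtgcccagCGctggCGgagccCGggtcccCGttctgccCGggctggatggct
EPHA3 held 15 CpG, EPHA7 19, EPHA1 17 and EPHB2 42, while the median over all 35116 promoter windows of the table was 11. The E-box read by repressors such as ZEB1 and SNAI1, searched as CAGGTG and its reverse complement CACCTG, was in the windows of EPHA1 and EPHB2 and in 17.5% of all windows. The GC box, GGGCGG or its reverse complement CCGCCC, was in the windows of EPHA7, EPHA1 and EPHB2 and in 42.6% of all windows. Among the 60 members with an entry, the 17 called higher had a median of 17 CpG, an E-box in 23.5% and a GC box in 70.6%, and the 23 called lower had a median of 19 CpG, an E-box in 8.70% and a GC box in 78.3%. These matches describe letters in the window and no occupied site.

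Of the 8 class A Eph receptors tested, 5 fell and 3 rose, beside 32.9% lower and 33.7% higher over all tested genes. EPHA3, a receptor mutated in some lung adenocarcinomas, had 87, 94 and 80 counts in vector replicates 1, 2 and 3 and 1, 0 and 0 counts in shMETTL3 replicates 1, 2 and 3. The knockdown libraries were thus at the floor, with 1 read in all against 261, a ratio of 283 with a 95% counting interval of 50.3 to 11214. EPHA7, a receptor of ephrin-A ligands, had 45, 42 and 37 counts in vector and 0, 2 and 0 counts in shMETTL3 libraries. Its 2 remaining reads against 124 gave a ratio of 67.2 with a counting interval of 18.2 to 561. Adjusted p was 1.71e-14 for EPHA3 and 1.69e-10 for EPHA7, and their fitted log2 fold changes, -7.67 and -5.82, depend on the prior count that edgeR adds. The median of the members would be the same with both genes at the bounds of their counting intervals, since both stay far below it.

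EPHA1, the first Eph receptor to be isolated, fell from a higher level. It stood at 31.5, 33.9 and 33.8 CPM in vector and at 2.12, 2.09 and 2.14 CPM in shMETTL3 libraries, or 6.40% of the vector mean (log2 fold change -3.96, standard error 0.11, adjusted p = 1.34e-21). Each knockdown value lay far below every vector value. On chromosome 7 of GRCh37 (143087382 to 143105949, minus strand), 82 bases of EPHA1 exons overlap those of ZYX on the other strand. ZYX had a log2 fold change of -1.91, with means of 511 CPM in vector and 136 CPM in shMETTL3 libraries. Since no strand setting of the counting is given, reads within those bases cannot be told apart. EPHA6, another ephrin-A receptor, was at 14.5, 14.5 and 16.8 CPM in vector and 4.71, 5.43 and 3.84 CPM in shMETTL3 libraries (log2 fold change -1.70, standard error 0.12, adjusted p = 2.59e-12). EPHA2, a receptor of ephrin-A1 that is abundant in many carcinomas, was at 152, 159 and 176 CPM in vector libraries. It was at 77.6, 86.1 and 86.7 CPM in shMETTL3 libraries, about 51.5% of the vector mean (log2 fold change -0.96, standard error 0.060, adjusted p = 7.27e-14). For EPHA6 and EPHA2 too, the groups did not overlap.

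EPHB2 went the other way and had the largest rise of all tested members. This ephrin-B receptor, known from the intestinal crypt, was at 10.2, 7.77 and 10.2 CPM in vector and at 89.3, 91.1 and 89.8 CPM in shMETTL3 libraries. The mean rose from 9.41 ± 1.42 to 90.1 ± 0.977 CPM (SD, n = 3), a log2 fold change of 3.26 (standard error 0.079, adjusted p = 8.18e-23). It lies on chromosome 1 of GRCh37 from 23037332 to 23247993. EPHA4, which binds ephrins of both classes, was at 3.06, 2.81 and 2.75 CPM in vector and 7.34, 5.98 and 6.35 CPM in shMETTL3 libraries (log2 fold change 1.19, standard error 0.16, adjusted p = 1.91e-07). EPHA10, whose kinase domain is inactive, was low in both groups, at 0.835, 0.837 and 1.29 CPM in vector and 3.41, 2.74 and 3.40 CPM in shMETTL3 libraries. It rose with a log2 fold change of 1.69 (standard error 0.25, adjusted p = 9.48e-07) and no overlap between groups.

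The other Eph receptors moved less. EPHB4, the receptor of ephrin-B2 on veins, changed by -0.21 on the log2 scale (adjusted p = 0.00387), and this call was lost with library size alone (adjusted p 0.00121 to 0.643 over 14 alternatives). EPHB6, which lacks kinase activity, had a log2 change of -0.45 (adjusted p = 0.0104) with overlapping groups. Its call was lost with library size alone and without vector replicate 1 or shMETTL3 replicate 1, with values of -0.28, -0.36 and -0.36 (adjusted p 0.00119 to 0.108 over 14 alternatives). EPHA5 had a log2 change of 0.88 (adjusted p = 0.00573), with 1 vector library inside the range of the shMETTL3 libraries. Without shMETTL3 replicate 1 it came to 0.61 and was no longer called (adjusted p 0.000181 to 0.0756 over 14 alternatives). In all, 11 Eph receptors were tested, 4 rose and 7 fell, beside 33.7% higher and 32.9% lower over all tested genes. EPHA3 and EPHA7, among the 7, passed the filter only through the vector libraries.

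Of the 7 tested ephrins, the ligands of these receptors, 4 rose, 2 fell and 1 was not called, beside 66.6% called over all tested genes. All 3 ephrin-B genes were tested and called higher, EFNB2 with under 10 counts in each vector library, so that it passed the filter only through its higher group. EFNB3, ephrin-B3, was at 0.835, 0.777 and 0.735 CPM in vector and 7.03, 5.73 and 6.48 CPM in shMETTL3 libraries (log2 fold change 3.02, standard error 0.21, adjusted p = 7.88e-13). The gene was under 1 CPM in every vector library and above 5 CPM in every knockdown library. EFNB1, ephrin-B1, was at 6.01, 7.05 and 8.57 CPM in vector and 14.2, 14.2 and 13.5 CPM in shMETTL3 libraries (log2 fold change 0.96, standard error 0.12, adjusted p = 4.59e-08). EFNB1 lies on the X chromosome, where 365 of the 446 tested genes rose and 24 fell, with a median log2 fold change of 0.74. EFNB2, the arterial partner of EPHB4, was low, and rose by 1.18 on the log2 scale (adjusted p = 0.00432).

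Among the ephrin-A genes tested, 1 rose, 2 fell and 1 was not called, beside 66.6% called over all tested genes. EFNA1, a ligand of EPHA2 induced by TNF in endothelium, was the riser. It was at 112, 118 and 119 CPM in vector and 204, 205 and 213 CPM in shMETTL3 libraries (log2 fold change 0.83, standard error 0.051, adjusted p = 5.91e-14). Ligand and receptor thus moved apart, EFNA1 up and EPHA2 down, in libraries that did not overlap for either gene. EFNA4 and EFNA5 had log2 fold changes of -0.57 and -0.43 (adjusted p = 0.00177 and 2.78e-05). EFNA3 had a log2 change of 0.14, with a 95% interval of -0.18 to 0.45. On chromosome 1, EFNA1 lies 40.3 kb from EFNA3 and 58.3 kb from EFNA4. An annotated readthrough transcript joins EFNA4 and EFNA3, so that reads of these 2 genes may be shared.

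**Figure D2:**
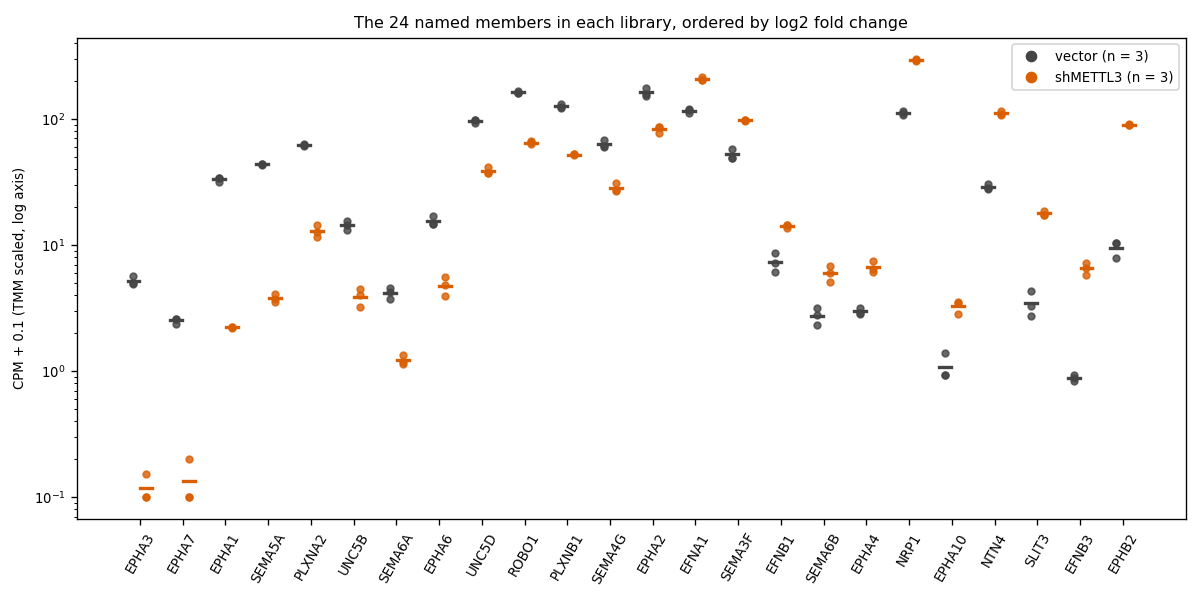
CPM + 0.1 on a log axis in each of the 6 libraries for the 24 members with the largest called changes, a mean of at least 1 CPM and groups that do not overlap. Points are libraries and bars are group means (n = 3), ordered from EPHA3, whose shMETTL3 libraries are at or near 0, to EPHB2, which rises from 9.41 to 90.1 CPM.

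Of the 18 semaphorins tested, 5 rose, 6 fell and 7 were not called, a share of calls near the 66.6% of all tested genes. SEMA5A, a membrane semaphorin with thrombospondin repeats, fell most. It was at 43.5, 43.7 and 43.2 CPM in vector and 3.98, 3.44 and 3.65 CPM in shMETTL3 libraries, 8.49% of the vector mean (log2 fold change -3.56, standard error 0.093, adjusted p = 3.79e-22). The vector values spread by less than 1 CPM and none of the knockdown values came near them. The gene lies on chromosome 5 of GRCh37 from 9035145 to 9546187. SEMA6A, a transmembrane ligand of PLXNA2 and PLXNA4, was at 4.12, 3.65 and 4.47 CPM in vector and 1.24, 1.05 and 1.07 CPM in shMETTL3 libraries (log2 fold change -1.86, standard error 0.21, adjusted p = 1.81e-08). SEMA6B, of the same class, moved in the other direction. Its values were 2.23, 3.05 and 2.69 CPM in vector and 5.90, 6.77 and 5.03 CPM in shMETTL3 libraries (log2 fold change 1.16, standard error 0.17, adjusted p = 1.20e-06).

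SEMA4G, a class 4 membrane semaphorin, was at 59.5, 60.6 and 68.3 CPM in vector and 26.5, 31.1 and 27.4 CPM in shMETTL3 libraries (log2 fold change -1.15, standard error 0.071, adjusted p = 7.27e-14). Its exons share 1215 bases with MRPL43 on the other strand, whose log2 fold change was -0.53, and since no strand setting of the counting is given, reads within those bases cannot be told apart. SEMA4A had 3, 2 and 7 counts in vector and 11, 15 and 19 counts in shMETTL3 libraries, and only the latter carried it past the filter. Its log2 change was 1.77 (adjusted p = 0.00292), and without vector replicate 3 it came to 2.45. SEMA4C had a log2 change of -0.33 (adjusted p = 0.00280). The SEMA4C call was lost with library size alone (adjusted p 0.000639 to 0.142 over 14 alternatives).

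The class 3 semaphorins, secreted ligands of the neuropilins, were all tested: 3 rose, 2 fell and 2 were not called. Over all tested genes, 66.6% were called. SEMA3F, a ligand of NRP2 first known from a region deleted in lung cancer, was at 49.1, 49.3 and 58.1 CPM in vector and 98.2, 97.4 and 96.9 CPM in shMETTL3 libraries. It rose with a log2 fold change of 0.90 (standard error 0.061, adjusted p = 5.00e-13). SEMA3B, which lies 78.5 kb from SEMA3F on the short arm of chromosome 3, went down instead. Its values were 253, 257 and 286 CPM in vector and 200.1, 203 and 211 CPM in shMETTL3 libraries (log2 fold change -0.37, standard error 0.053, adjusted p = 6.32e-07). SEMA3C and SEMA3A rose by 0.77 and 0.44 on the log2 scale (adjusted p = 6.53e-11 and 1.06e-07), and SEMA3D had a log2 change of -0.70 (adjusted p = 0.00227). SEMA3A and SEMA3D, 503 kb apart on chromosome 7, thus moved in opposite directions, and SEMA3E beside them was not called.

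The 7 semaphorins tested and not called were SEMA3E, SEMA3G, SEMA4B, SEMA4D, SEMA4F, SEMA6C and SEMA7A. For the well-measured ones the intervals were narrow. SEMA4B had a log2 fold change of 0.11 with a 95% interval of -0.0068 to 0.22, SEMA4D had a log2 change of 0.13 (-0.06 to 0.31), and SEMA4F had a log2 change of 0.13 (-0.06 to 0.33). SEMA4D is the ligand of PLXNB1. The rarer ones were less certain: SEMA3E had a log2 change of -0.02 (-0.65 to 0.61), SEMA3G had a log2 change of 0.68 (-0.17 to 1.55), SEMA6C had a log2 change of -0.12 (-0.57 to 0.33) and SEMA7A had a log2 change of 0.88 (0.05 to 1.73). Changes of more than 2-fold lie inside the intervals of SEMA3G and SEMA7A, so that for these the depth does not decide. With library size alone, SEMA4B, SEMA4D, SEMA4F and SEMA7A were called higher, at 0.28, 0.30, 0.31 and 1.05. SEMA4B was also called higher with upper-quartile scaling, with at least 10 counts in every library and without vector replicate 3, at 0.13, 0.13 and 0.12 (adjusted p 9.01e-05 to 0.339 over 14 alternatives).

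Both neuropilins rose. NRP1, a co-receptor of SEMA3A that also binds VEGF, was at 108, 112 and 115 CPM in vector and 294, 296 and 286 CPM in shMETTL3 libraries. The mean rose from 112 ± 3.61 to 292 ± 5.50 CPM (SD, n = 3), a log2 fold change of 1.39 (standard error 0.051, adjusted p = 6.90e-19). Every knockdown library lay far above every vector library. NRP2, the co-receptor of SEMA3F, was at 128, 126 and 139 CPM in vector and 197, 201 and 188 CPM in shMETTL3 libraries (log2 fold change 0.58, standard error 0.053, adjusted p = 2.25e-10). Thus SEMA3A, SEMA3C and SEMA3F and both co-receptors were higher in each knockdown library than in any vector library, while SEMA3B and SEMA3D were lower in each. Groups did not overlap for 69.4% of all tested genes.

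The plexins, the signalling receptors of this system, were tested in 7 cases: 3 rose and 4 fell, beside 33.7% higher and 32.9% lower over all tested genes. PLXNA2, a class A plexin, fell most. It was at 62.1, 60.6 and 63.2 CPM in vector and 12.5, 14.2 and 11.4 CPM in shMETTL3 libraries, 20.5% of the vector mean (log2 fold change -2.28, standard error 0.075, adjusted p = 7.52e-20). The other tested class A plexins, PLXNA1 and PLXNA3, rose by 0.45 and 0.71 on the log2 scale (adjusted p = 7.65e-07 and 1.71e-07), and PLXNA3 is an X-chromosome gene. PLXNB1, a class B plexin, was at 122, 123 and 132 CPM in vector and 51.6, 52.5 and 52.1 CPM in shMETTL3 libraries (log2 fold change -1.27, standard error 0.055, adjusted p = 2.37e-17). Its ligand SEMA4D was not called.

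PLXND1, a receptor of SEMA3E known from blood vessels, went from 92.1 ± 6.80 to 53.9 ± 0.412 CPM (SD, n = 3), with a log2 fold change of -0.77 and an adjusted p of 5.26e-12 in edgeR. PLXNB2 had a log2 change of -0.21 (adjusted p = 0.00131), a call that was lost with library size alone, where it came to -0.04 (adjusted p 0.000129 to 0.551 over 14 alternatives). PLXNC1, the receptor of SEMA7A, was under 1 CPM in every library and had a log2 change of 1.05 (adjusted p = 0.0289). Its exons share 177 bases with CEP83 on the other strand. That call was lost without vector replicate 1 or 3, without shMETTL3 replicate 2 or 3, with no filter and with DESeq2, where the value ran from 0.92 to 1.07 (adjusted p 0.0117 to 0.104 over 13 alternatives).

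In the slit and robo system, SLIT3 rose, while the other slits and both tested robos fell. Over all tested genes, 33.7% were called higher and 32.9% lower. SLIT3, a secreted ligand of the robos, was at 3.17, 2.63 and 4.22 CPM in vector and 17.3, 17.2 and 18.6 CPM in shMETTL3 libraries. It rose by 2.40 on the log2 scale (standard error 0.13, adjusted p = 4.29e-15), and the lowest knockdown library was far above the highest vector library. Its relatives were lower: SLIT2 had a log2 change of -0.72 (adjusted p = 0.000562) and SLIT1, under 1 CPM in every library, had a log2 change of -1.17 (adjusted p = 0.0108). Only the vector libraries carried SLIT1 past the filter. ROBO1, the main robo of these cells, was at 167, 161 and 160.2 CPM in vector and 66.6, 62.7 and 65.5 CPM in shMETTL3 libraries (log2 fold change -1.33, standard error 0.053, adjusted p = 4.03e-18). ROBO1 lies on chromosome 3 of GRCh37 from 78646389 to 79817148. ROBO3, a divergent robo, was near 1 CPM and had a log2 change of -0.80 (adjusted p = 0.0494). This call was lost in 10 of 13 alternatives, among them each of 5 fits that left out a library (all but shMETTL3 replicate 3), with values of -0.90 to -0.56 in those 5 (adjusted p 0.0258 to 0.215 over the 13).

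Of the 3 netrins tested, NTN4 and NTN5 rose and NTN1 was not called, beside 66.6% called over all tested genes. NTN4, a netrin related to laminin that is found in basement membranes, was at 27.8, 30.6 and 28.2 CPM in vector and 115, 109.7 and 107 CPM in shMETTL3 libraries. The mean rose from 28.9 ± 1.52 to 111 ± 3.81 CPM (SD, n = 3), a log2 fold change of 1.94 (standard error 0.060, adjusted p = 1.76e-20). NTN4 lies on chromosome 12 of GRCh37 from 96051583 to 96184967. NTN5 had a log2 change of 0.79 (adjusted p = 0.0324), with overlapping groups. Its call was lost with DESeq2 and without vector replicate 1 or 2 or shMETTL3 replicate 2, at 0.57 to 0.78 (adjusted p 0.00629 to 0.179 over 14 alternatives). NTN1, the founding netrin, was not called, at 0.43 with a 95% interval of -0.35 to 1.22.

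Of the 4 netrin receptors tested, 3 fell and 1 rose, beside 32.9% lower and 33.7% higher over all tested genes. UNC5B, a receptor that triggers cell death when it has no ligand, was at 14.4, 13.0 and 15.5 CPM in vector and 3.88, 3.14 and 4.34 CPM in shMETTL3 libraries (log2 fold change -1.93, standard error 0.13, adjusted p = 4.81e-13). UNC5D, its relative, was at 98.7, 93.2 and 98.4 CPM in vector and 41.1, 37.2 and 37.0 CPM in shMETTL3 libraries (log2 fold change -1.33, standard error 0.059, adjusted p = 4.70e-17). NEO1, or neogenin, which also binds the repulsive guidance molecules, was at 179, 176 and 201 CPM in vector libraries. In the shMETTL3 libraries it was at 126, 121 and 126 CPM (log2 fold change -0.58, standard error 0.055, adjusted p = 5.20e-10). The groups did not overlap for any of these 3 receptors. UNC5C, under 2 CPM throughout and kept by the filter only through the shMETTL3 libraries, rose by 1.68 on the log2 scale (adjusted p = 0.000193), while DCC, the classical netrin receptor, did not pass the filter.

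Levels of different genes are compared only per length, as CPM per kb of the annotated canonical transcript, which need not be the isoform these cells use. On that scale, the highest members over all 6 libraries were EFNA1 and SEMA3B, both ligands. EFNA1 went from 75.1 to 134 CPM per kb and SEMA3B from 83.4 to 64.3, so that their order in the vector libraries was turned round in the knockdown libraries. The highest Eph receptor was EPHA2, at 41.1 CPM per kb in vector and 21.2 in shMETTL3 libraries. NRP1 and NRP2 were about level in the vector libraries, at 19.8 and 19.7 CPM per kb, and stood at 51.8 and 29.4 in the shMETTL3 libraries. PLXNB2 was the highest plexin, at 27.4 and 23.7 CPM per kb, and NEO1 the highest netrin receptor, at 26.0 and 17.5. The highest robo was ROBO1, at 23.5 in vector and 9.37 in shMETTL3 libraries. NTN4 was the highest netrin, at 7.97 and 30.5 CPM per kb. No slit came near these: SLIT3, the highest over all libraries, was at 0.344 in vector libraries, below SLIT2 at 0.575, and at 1.82 in shMETTL3 libraries.

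**Figure D3:**
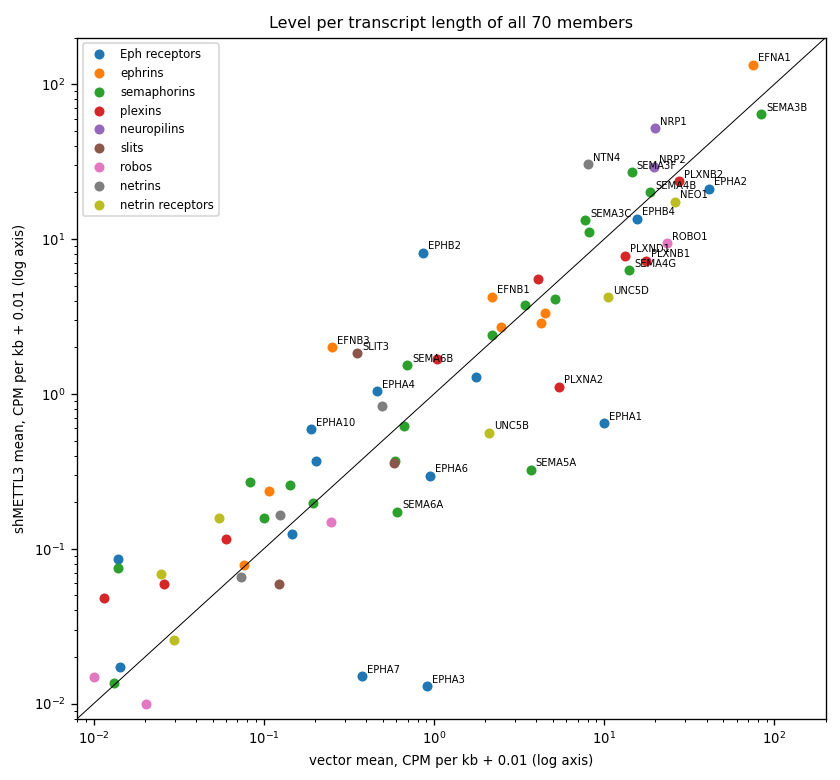
Mean level in CPM per kb of canonical transcript, vector libraries on the x axis and shMETTL3 libraries on the y axis, both log scales, with 0.01 added and 1 colour a family, for all 70 members. Points above the diagonal are higher in shMETTL3 libraries: EFNA1 is at the top right, EPHB2 and NTN4 lie above the line, and EPHA1 and SEMA5A lie well below it.

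The filter left out 13 members with too few counts for the main fit, and their highest single count lay between 1 and 14. They were EPHA8, EPHB1, EPHB3, EFNA2, SEMA5B, SEMA6D, PLXNA4, PLXNB3, ROBO2, ROBO4, NTN3, DCC and UNC5A. For 3 of them the reads lay almost wholly in the knockdown libraries. PLXNA4, a receptor of class 6 semaphorins, had 1 count over the vector and 28 over the shMETTL3 libraries, a ratio of 25.8 with a 95% counting interval of 4.27 to 1057. EPHA8, 107 kb from EPHB2 on chromosome 1, had 1 and 20 counts, a ratio of 18.5 (2.95 to 765). SEMA5B, the relative of SEMA5A, had 1 and 18 counts, a ratio of 16.6 (2.62 to 692). These intervals cover counting error only. Of the rest, EPHB3 had the highest single count, 13, with 29 counts over the vector and 27 over the shMETTL3 libraries. The endothelial receptor ROBO4 had a single read, while ROBO2 had all of its 5 reads in 1 vector library.

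Neighbouring members did not always move together. EPHA1 and EPHB6, 519 kb apart on chromosome 7, both fell, by different amounts (log2 fold changes of -3.96 and -0.45). Around EPHA1, 9 of the 13 other tested genes within 1 Mb fell and 2 rose, with a median of -0.73. Around EPHB2, 10 of 23 rose and 4 fell, with a median of 0.09. All 3 tested genes within 1 Mb of EPHA3 rose, against the fall of EPHA3 itself, and none was tested within 1 Mb of EPHA7 or ROBO1. The other pairs within 1 Mb, PLXNA3 with PLXNB3, ROBO1 with ROBO2 and ROBO3 with ROBO4, each held a member that was not tested.

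GGACU, read as GGACT in DNA, is the commonest form of the sequence that METTL3 methylates, and it was counted in the canonical transcript of each gene. Tested members held a median of 1.35 such motifs per kb, against 0.922 per kb over the 12464 tested protein-coding genes. Among members the median was 1.26 for those that rose, 1.50 for those that fell and 1.48 for the 9 not called. Over all tested protein-coding genes the medians were 0.883, 0.975 and 0.908 in the same order. EPHB2, the largest riser, held 1.90 motifs per kb, and the fallers EPHA1, EPHA3 and EPHA7 held 2.11, 1.58 and 0.755 per kb, values on both sides of it. A motif is no measured methylation, and m6A itself was not measured in these libraries.

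The genes that work beside these ligands and receptors were also listed, 77 in all. Of these, 69 were tested and 49 were called, 31 higher and 18 lower, beside the 66.6% called over all tested genes. The 2 lists described here hold 22 other ligands and partners and 41 intracellular effectors. Among other ligands and partners, 6 of 15 tested rose and 4 fell. NRCAM, a cell adhesion molecule that forms complexes with neuropilins, rose most. It was at 2.56, 2.33 and 1.90 CPM in vector and 53.3, 50.3 and 50.9 CPM in shMETTL3 libraries (log2 fold change 4.50, standard error 0.10, adjusted p = 2.55e-23). MMP2, a metalloproteinase, was at 0.612, 0.478 and 0.367 CPM in vector and 5.38, 4.78 and 4.84 CPM in shMETTL3 libraries (log2 fold change 3.34, standard error 0.25, adjusted p = 2.89e-12). Only the shMETTL3 libraries carried MMP2 past the filter. VEGFA, the VEGF ligand of NRP1, had a log2 change of 0.60 (adjusted p = 3.16e-10). RGMB, a ligand of NEO1, had a log2 change of -1.13 (adjusted p = 4.05e-07), so that ligand and receptor fell together. Both were chosen after their values were seen.

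Of the 41 intracellular effectors, all tested, 21 rose and 8 fell, beside 33.7% higher and 32.9% lower over all tested genes. The collapsin response mediators, which carry the semaphorin 3A signal to microtubules, were all among the risers: CRMP1, DPYSL2, DPYSL3, DPYSL4 and DPYSL5. DPYSL5 was at 0.556, 0.897 and 1.16 CPM in vector and 6.41, 6.18 and 6.67 CPM in shMETTL3 libraries (log2 fold change 2.88, standard error 0.22, adjusted p = 3.26e-12). The log2 fold changes of the other 4 were 1.21, 0.34, 2.78 and 1.08 in the order named, and this set was singled out after its values were seen. FYN, a Src-family kinase that acts below plexins and Eph receptors, fell most. It was at 35.0, 35.6 and 35.3 CPM in vector and 11.6, 11.9 and 11.9 CPM in shMETTL3 libraries (log2 fold change -1.58, standard error 0.076, adjusted p = 2.89e-16). ABLIM1, an actin-binding protein, was at 564, 592 and 574 CPM in vector and 253, 252 and 259 CPM in shMETTL3 libraries (log2 fold change -1.18, standard error 0.049, adjusted p = 1.02e-17). The groups did not overlap for FYN or ABLIM1. SSH3, a phosphatase that switches cofilin on, was the next largest fall among the partner genes, at 84.6, 88.2 and 95.8 CPM in vector and 39.4, 40.1 and 39.3 CPM in shMETTL3 libraries (log2 fold change -1.17, standard error 0.060, adjusted p = 9.11e-16).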

How the data were processed

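RNA of 3 vector and 3 shMETTL3 libraries of A549 cells was sequenced. The authors trimmed and mapped the reads to hg19, counted them per gene and deposited raw counts, without normalization or filtering. The labels list cutadapt 3.0, HISAT2 2.2.1, SAMtools 1.13, HTSeq 0.13.5 and DESeq2, and the study's methods give other versions of HISAT2 and HTSeq. The gene annotation and strand setting are not given in the sources used here.

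Groups and replicate numbers came from the sample titles. Counts were tested in R 4.3.3 with edgeR 4.0.16 (TMM, filterByExpr, glmQLFit and glmQLFTest, group as the only term), with Benjamini-Hochberg adjustment over 15125 genes. The standard error is the unshrunk coefficient over the root of its F, and CPM values are scaled by TMM. METTL3 was also compared by an exact permutation test of log2(CPM + 0.1). The functions were tested on simulated data. With totals of 14931426 to 19108928 counts, 3 counts in a library were taken as the floor, and counting intervals are exact 95% intervals of the ratio of summed counts, covering counting error only.

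Positions, transcript lengths, exon overlaps and GGACT counts came from GENCODE on GRCh37, the build of hg19, where all 70 members matched, and promoters came from RefSeq on GRCh38.p14. Symbols turned into dates filled 27 rows, none of them a member.

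The 24 members given in full had an adjusted p under 0.05, groups that do not overlap and a mean of at least 1 CPM, ranked by absolute log2 fold change. Beside them stand the highest member of each family per length, every member tested and not called, and every pair within 1 Mb. Of the pathway partners, the 3 largest rises and 3 largest falls with a mean of at least 1 CPM were named, and 1 pathway list is otherwise not reported here. The members, the pathway lists and the rules were chosen with earlier results of these data known.

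Alternatives were RLE, upper-quartile and library-size scaling, DESeq2 1.42.0 and limma-voom (limma 3.58.1), the replicate number as a block, an unfiltered table and one with at least 10 counts in each library, the omission of single libraries, and stricter calls.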

Additional observations from a re-analysis of the deposited data

How the results depend on the processing

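No result changed sign among those called, and 40 of the 48 called members, with all 24 given in full, kept call and direction in every alternative fit in which they were tested. The numbers of called members and partners stayed within 1.5 times of the reported ones except with a minimum fold: with an absolute log2 fold change of at least 1, there were 25 changed members, 12 higher and 13 lower, and 15 changed partner genes. Leaving out 1 library at a time gave 44 to 47 changed members, 20 to 22 higher and 24 to 26 lower, 41 to 52 changed partners, and a METTL3 log2 fold change of -1.38 to -1.34. Among the fits with no minimum fold, the fewest changed members, 41, came with at least 10 counts in every library, where fewer genes are tested. DESeq2 gave 45 and limma-voom 48. The fitted log2 fold changes of EPHA3 (-9.48 to -7.03) and EPHA7 (-8.39 to -5.28) moved most, with the lowest values without shMETTL3 replicate 1 and without shMETTL3 replicate 2, the libraries that hold their only 1 and 2 counts. Without vector replicate 3, SEMA4A rose by 2.45 in place of 1.77.

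The replicate block gave 47 changed members, 22 higher and 25 lower, 49 changed partners and a METTL3 log2 fold change of -1.36. Libraries with the same number did not deviate together (correlations of 0.051, -0.0058 and 0.033 between deviations from the group means), so the numbers were not taken as pairs. The calls of PLXNC1, ROBO3, NTN5 and EPHA5, each below 4 CPM in every library, and of EPHB6 were lost when certain single libraries were left out, and the cause was not tested. At this depth, the filter left 13 members out of the main fit. In the unfiltered edgeR fit, PLXNA4, EPHA8 and SEMA5B of these were called higher (adjusted p = 6.39e-05, 0.00174 and 0.00443). Each had 1 count over the vector libraries, so these calls rest on values at the floor.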

Other observations

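DSCAM, a netrin co-receptor of neurons, had 0 counts in every library, while its relative DSCAML1 was at 8.17 ± 1.02 CPM in vector and 5.42 ± 0.235 CPM in shMETTL3 libraries (log2 fold change -0.59, adjusted p = 0.000340 from edgeR). NTNG2, a netrin tied to the membrane by a lipid, rose from 1.46 ± 0.207 to 7.51 ± 0.787 CPM (log2 fold change 2.36, adjusted p = 4.51e-12 from edgeR), and its relative NTNG1 did not pass the filter.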
